A study of Homo sapiens with 18 samples.

Results

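The genes described here are 10 targets of the transcription factor NRF2 and the ferritin genes, taken by symbol: HMOX1, FTL, FTH1, SLC7A11, GCLM, GCLC, TXNRD1, SRXN1, NQO1 and SQSTM1. All 10 were found among the 25369 genes of the deposited tables and passed the filter on low values in both cell lines. Their transcripts were measured by RNA sequencing in 18 libraries of JEKO1 and MAVER, established human lines of mantle cell lymphoma, a cancer of B cells. There were 6 groups of 3 libraries, all harvested at 6 h: JEKO1 with IB, MAVER with IB, MAVER with KPT, MAVER with PU, and each line with DMSO, the solvent. IB was taken as ibrutinib, a drug that blocks the kinase BTK downstream of the B cell receptor, used at 0.4 µM. KPT was taken as selinexor, which inhibits the nuclear exporter XPO1, at 1.5 µM, because the submitters' design text gives these inhibitors and doses for the series. PU has no definition or dose in the sources used here and is kept as a label. The 3 libraries of a group are called biological replicates, with nothing said of separate cultures, so each p-value reflects the scatter of these libraries, which may be partly technical. In bulk RNA, fewer cells expressing a gene and less RNA per cell cannot be told apart.

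NRF2, the product of NFE2L2, is held in the cytoplasm and sent for degradation by KEAP1 with the ligase CUL3. Oxidants and electrophiles modify KEAP1, and NRF2 then enters the nucleus, pairs with a small MAF protein and binds antioxidant response elements near its targets. BACH1, which heme inactivates, and its relative BACH2, which is prominent in B cells, compete for these elements as repressors, and HMOX1 is a known BACH1 target. Ferritin, a shell of FTL and FTH1 chains, stores iron. Its translation is also controlled by iron regulatory proteins, a layer that RNA levels do not show.

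The antioxidant response element has the core TGACNNNGC, where N is any base, and the core was searched on both strands of the 250 bases before the RefSeq start sites in build GRCh38.p14. RefSeq windows were at hand for 7 of the 10 genes (10 windows), and 3 windows of GCLM and TXNRD1 held the core. HMOX1, SLC7A11 and FTH1 had no window. Sequence outside the 250 bases was not searched, so a gene without a match here may have an element elsewhere. Of all 35116 RefSeq windows of this length, 3830 (10.9%) held it. The matches are shown because they are the letters that NRF2, BACH1 and BACH2 recognise. Each is given 5′ to 3′ on the gene's strand with 15 bases on either side and with the core in capitals. A core on the opposite strand appears as its reverse complement.
GCLM, minus strand, chr1:93909441-93909479, core on the opposite strand reading TGACTAAGC, 25 bases before the start site: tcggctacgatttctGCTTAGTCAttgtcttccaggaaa
TXNRD1, plus strand, chr12:104215665-104215703, core on the same strand, 90 bases before 1 start site: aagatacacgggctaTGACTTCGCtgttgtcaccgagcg
TXNRD1, plus strand, chr12:104286915-104286953, core on the opposite strand reading TGACAAAGC, 93 bases before another start site: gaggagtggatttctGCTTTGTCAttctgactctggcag
The match describes these windows and does not show a bound site.

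Values are normalized counts, that is, the reads of a gene scaled by the authors with 1 factor for each library. They are not divided by gene length, so levels of different genes are not compared. Recovered depth was 5374226 to 17040599 reads per library. RNA45S5, the ribosomal RNA precursor, was higher in KPT replicates A and C (53819 and 66933) than in KPT replicate B (9092), and was also high in JEKO1 DMSO replicate C (65331). KPT results were therefore also taken with replicate B alone, which was then assumed to scatter like the other groups. XPO1, whose transcript is known to increase when its protein is inhibited, was at 10947 to 11624 in KPT libraries and 5134 to 5333 in DMSO libraries. B cell markers (6 genes) summed to 23476 to 25339 in JEKO1 and 25075 to 30579 in MAVER, and the mantle cell markers CCND1, SOX11 and CD5 to 28002 to 31993 and 42811 to 59959. Erythroid markers were 0 in all libraries, and T cell and myeloid markers summed to at most 9.42 and 11.4. Among 1415 genes called for IB in both lines, 1260 (89%) moved in opposite directions. Opposite responses of the lines and exchanged JEKO1 labels cannot be told apart, so JEKO1 groups are given as "labelled".

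In MAVER, PU raised HMOX1, SLC7A11 and SQSTM1 the most, KPT raised both ferritin transcripts the most, and IB raised none of the 10 genes and lowered 6. With PU, 8 of the 10 rose and 0 fell, where 27.6% of all 11099 genes tested were called higher and 27.5% lower (limma on log2(normalized count + 1), Benjamini-Hochberg adjusted p under 0.05). With KPT, 7 rose and 2 fell, against 27.3% of all genes called higher and 28.5% lower. With IB, 0 rose and 6 fell, against 10.1% of all genes called higher and 9.65% lower. The count with PU was 5 without PU replicate B, where 2801 of all 11099 genes were called higher and 2811 lower. Without both KPT libraries rich in RNA45S5, 1 KPT library was left. The log2 fold changes with KPT were then 0.34 for NQO1, 0.12 for TXNRD1, -0.21 for GCLM and -0.17 for SRXN1. Each count of 0 members here and in the comparisons that follow was also 0 at an unadjusted p under 0.05 in limma, with edgeR and with DESeq2. The median log2 fold change of the 10 genes was 0.32 with PU, 0.31 with KPT and -0.21 with IB. The median of all genes was 0.007 with PU, -0.001 with KPT and -0.006 with IB. Without regard to sign, the median change of the 10 genes was 0.316 with PU, 0.306 with KPT and 0.206 with IB. That of all genes was 0.246, 0.248 and 0.112 in the same order. The 3 drug groups share the same DMSO libraries.

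**Figure D1:**
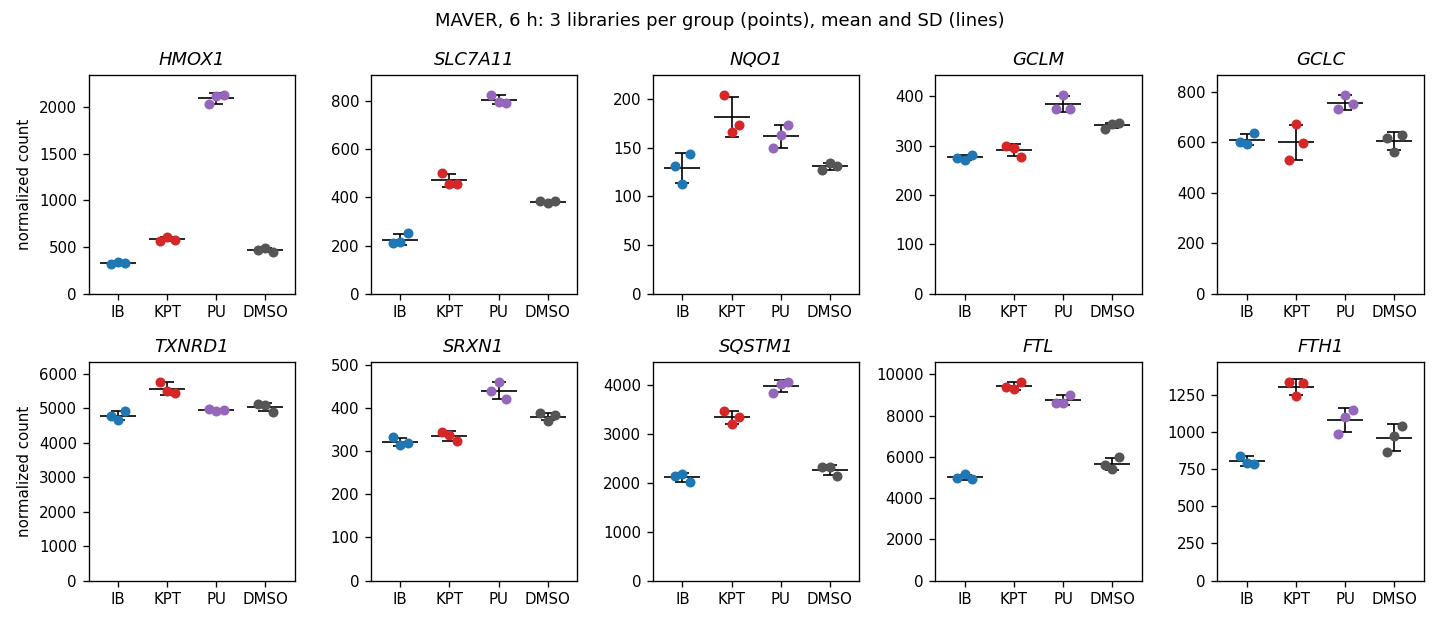
Normalized counts (y axis, from 0) of the 10 genes in the 12 MAVER libraries, with the IB, KPT, PU and DMSO groups on the x axis, libraries as points, the mean as the long line and the SD as the error bar. The 3 PU libraries of HMOX1 sit at 2029 to 2132, above all other libraries, and the FTL libraries with KPT or PU sit at 8590 to 9656 while those with IB or DMSO sit at 4911 to 5973.

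HMOX1 encodes heme oxygenase 1, which splits heme into iron, carbon monoxide and biliverdin. In replicates A, B and C, the order used throughout, HMOX1 stood at 324, 345 and 327 normalized counts with IB, 565, 606 and 579 with KPT, 2029, 2114 and 2132 with PU, and 470, 491 and 450 with DMSO. The 4 groups did not overlap, in the order PU, KPT, DMSO and IB. With PU, HMOX1 rose 4.45-fold over DMSO (log2 fold change 2.15 ± 0.06 SE, limma adjusted p = 5.64e-29, n = 3). KPT raised it 1.24-fold (0.31 ± 0.06, limma adjusted p = 2.59e-05), and with IB it fell to 0.706 of the DMSO mean (-0.50 ± 0.06, limma adjusted p = 1.1e-08). Direct tests between drugs separated all 3: the PU level was 3.59-fold that with KPT (log2 difference 1.84, limma adjusted p = 1.06e-26) and 6.30-fold that with IB (2.65, limma adjusted p = 2.88e-32). The 3 genes whose pattern over the 12 MAVER libraries was most like that of HMOX1 were MAP1A (Pearson r 0.9942), HSP90AA1 (0.9931) and SNX3 (0.9916). These correlations on the log2 scale describe 12 libraries in 4 groups and carry no p.

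COL1A1 and EPCAM, markers of stromal and epithelial cells, were also higher with PU, while T cell and erythroid markers were 0 in all MAVER libraries and myeloid markers summed to 0.931 to 3.4 with PU and 1.563 to 5.715 with DMSO. The stromal pair COL1A1 and COL1A2 summed to 652 to 735 in PU libraries and 58.6 to 62.9 in DMSO libraries. COL1A1 made up nearly all of this, since COL1A2 was at 0 to 1.86 in PU libraries and at 0 in DMSO libraries. The epithelial pair EPCAM and KRT19 summed to 263 to 299 with PU and 161 to 189 with DMSO, with KRT19 at 0 in all libraries. B cell markers summed to 29682 to 30579 with PU and 25323 to 26256 with DMSO, and mantle cell markers to 42811 to 45412 with PU and 58135 to 59959 with DMSO. CCND1 made up nearly all of the mantle cell sum, and SOX11 overlapped between the groups (608 to 707 with PU and 605 to 668 with DMSO). The part of other cell types, and of these marker differences, in the PU values was not tested.

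The ferritin genes were highest with KPT, not with PU. FTL, the light chain, stood at 4995, 5155 and 4911 normalized counts with IB, 9384, 9272 and 9656 with KPT, 8590, 8627 and 9015 with PU, and 5600, 5399 and 5973 with DMSO. FTL rose 1.67-fold with KPT (log2 fold change 0.74 ± 0.04 SE, limma adjusted p = 7.53e-19) and 1.55-fold with PU (0.63 ± 0.04, limma adjusted p = 7.8e-17). It fell with IB to 0.887 of the DMSO mean (-0.17 ± 0.04, limma adjusted p = 0.00132). FTL was lower with PU than with KPT by a log2 difference of -0.11 (limma adjusted p = 0.018, 0.00237 to 0.247 over the alternatives). That call was lost without KPT replicate C, without PU replicate A or B, without both KPT libraries rich in RNA45S5, and without the variance trend. RBM47 (r 0.9895), SAT1 (0.989) and LGALS1 (0.9876) had the patterns most like that of FTL over the same libraries.

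FTH1, the heavy chain with the ferroxidase activity, stood at 839, 788 and 782 normalized counts with IB, 1338, 1239 and 1324 with KPT, 988, 1098 and 1145 with PU, and 866, 973 and 1042 with DMSO. The KPT libraries lay above all others and the IB libraries below all others, while PU and DMSO overlapped. FTH1 rose 1.35-fold with KPT (0.44 ± 0.06, limma adjusted p = 7e-08). The 1.12-fold rise with PU was called (0.17 ± 0.06, limma adjusted p = 0.019, 0.00342 to 0.232 over the alternatives) but was lost at equal totals, without the variance trend, and without DMSO replicate A, PU replicate B or PU replicate C. With IB it fell to 0.836 of the DMSO mean (-0.25 ± 0.06, limma adjusted p = 0.00169), a call lost without the variance trend (0.0504; range 0.000218 to 0.0504). FTH1 was lower with PU than with KPT (log2 difference -0.27, limma adjusted p = 0.000193), and this was lost without both KPT libraries rich in RNA45S5 (0.0559). The quotient of FTL over FTH1 counts was 6.26 ± 0.296 with IB, 7.26 ± 0.236 with KPT, 8.14 ± 0.48 with PU and 5.92 ± 0.486 with DMSO (SD, n = 3). Both chains have many near-identical pseudogenes in the genome that can share reads, so their values are uncertain; the listed copies FTH1P18, FTHL17 and FTLP10 had 0 reads and FTH1P3 had 0 to 7.

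SLC7A11, the cystine importer of system xc-, stood at 211, 213 and 251 normalized counts with IB, 502, 457 and 454 with KPT, 826, 797 and 793 with PU, and 385, 377 and 383 with DMSO. As for HMOX1, the 4 groups did not overlap and ran in the order PU, KPT, DMSO and IB. SLC7A11 rose 2.11-fold with PU (1.07 ± 0.07, limma adjusted p = 5.79e-16) and 1.23-fold with KPT (0.30 ± 0.07, limma adjusted p = 0.000586), and with IB it fell to 0.589 of the DMSO mean (-0.76 ± 0.07, limma adjusted p = 4.59e-11). Its log2 fold change with IB was the lowest of the 10 genes. PU exceeded IB 3.58-fold (log2 difference 1.84, limma adjusted p = 1.35e-23). FCRLA (r 0.9922), CD84 (0.9803) and TRPM4 (0.9769) were the genes most like it in pattern.

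The 2 subunits of glutamate-cysteine ligase, which makes the first bond of glutathione, moved differently. GCLM, the modifier subunit and 1 of the genes with the printed core, stood at 275, 272 and 281 normalized counts with IB, 299, 295 and 277 with KPT, 375, 403 and 374 with PU, and 334, 343 and 345 with DMSO. It fell with IB (0.81 of the DMSO mean, -0.30 ± 0.08, limma adjusted p = 0.00299) and with KPT (0.852, -0.23 ± 0.08, limma adjusted p = 0.01). The KPT call was lost without KPT replicate C (0.0505) and without both KPT libraries rich in RNA45S5 (0.11), over a range of 0.00216 to 0.11. With PU all 3 libraries lay above the DMSO libraries, but the difference was not called (0.17, 95% interval 0.02 to 0.33, limma adjusted p = 0.0564). It was called with edgeR, without a filter, at equal upper quartiles, without the trend and with the compared groups alone (range 0.0113 to 0.21). PU was above KPT (0.40, limma adjusted p = 2.35e-05) and IB (0.47, limma adjusted p = 1.52e-06).

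GCLC, the catalytic subunit, stood at 602, 592 and 635 normalized counts with IB, 531, 670 and 598 with KPT, 732, 788 and 750 with PU, and 617, 562 and 628 with DMSO. Only the PU libraries stood apart, above the 9 others. The rise with PU was 1.26-fold (0.33 ± 0.07, limma adjusted p = 8.16e-05). With IB the log2 difference from DMSO was 0.02 (95% interval -0.12 to 0.16) and with KPT -0.01 (-0.15 to 0.13), neither called. PU was above KPT (0.34, limma adjusted p = 4.88e-05), a call lost without both KPT libraries rich in RNA45S5 (0.0998).

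Of the thioredoxin arm, the member TXNRD1 showed small changes. TXNRD1, the selenoprotein that reduces thioredoxin and the other gene with the printed core, stood at 4765, 4657 and 4920 normalized counts with IB, 5774, 5485 and 5450 with KPT, 4971, 4913 and 4941 with PU, and 5135, 5084 and 4893 with DMSO. KPT libraries lay above all others, and the other 3 groups overlapped. TXNRD1 rose 1.11-fold with KPT (0.14 ± 0.04, limma adjusted p = 0.00187), a call lost without both KPT libraries rich in RNA45S5 (0.0753; range 0.000346 to 0.0753). With PU, which raised HMOX1 and SLC7A11 the most, TXNRD1 differed from DMSO by -0.03 (95% interval -0.11 to 0.05, not called) and was below KPT (-0.17, limma adjusted p = 0.000274). With IB the difference was -0.08 (-0.15 to 0.00, limma adjusted p = 0.192). FAM168A (r 0.9756), PAPOLA (0.9723) and UGP2 (0.966) had the patterns most like it.

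SRXN1, sulfiredoxin, restores overoxidised peroxiredoxins. It stood at 331, 313 and 319 normalized counts with IB, 344, 336 and 323 with KPT, 438, 461 and 421 with PU, and 387, 370 and 382 with DMSO. The PU libraries were above and the IB and KPT libraries below those with DMSO. SRXN1 rose 1.16-fold with PU (0.21 ± 0.07, limma adjusted p = 0.0133, range 0.00423 to 0.079, lost without DMSO replicate B or PU replicate B). It fell with IB (0.846 of the DMSO mean, -0.24 ± 0.07, limma adjusted p = 0.0142, range 0.007 to 0.0591, lost without DMSO replicate A or IB replicate B). It fell with KPT (0.881, -0.18 ± 0.07, limma adjusted p = 0.0318, range 0.00918 to 0.166), and this call was lost with DESeq2, at equal upper quartiles, without DMSO replicate A or C, without KPT replicate B or C, and without both KPT libraries rich in RNA45S5.

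NQO1, which reduces quinones, stood at 131, 113 and 143 normalized counts with IB, 204, 166 and 173 with KPT, 150, 163 and 173 with PU, and 127, 134 and 131 with DMSO. KPT and PU libraries overlapped each other and lay above those with DMSO. NQO1 rose 1.39-fold with KPT (0.46 ± 0.12, limma adjusted p = 0.000781, range 0.000525 to 0.0785, lost without both KPT libraries rich in RNA45S5). With PU it rose 1.24-fold (0.30 ± 0.12, limma adjusted p = 0.0242, range 0.00954 to 0.101), which was lost at equal totals and without DMSO replicate A, PU replicate B or PU replicate C. PU and KPT differed by -0.16 (95% interval -0.39 to 0.07, not called), and IB from DMSO by -0.03 (-0.26 to 0.21, not called).

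SQSTM1 encodes p62, a receptor that carries ubiquitin-tagged cargo, and also KEAP1, into autophagosomes. It stood at 2141, 2188 and 2008 normalized counts with IB, 3474, 3199 and 3350 with KPT, 3841, 4025 and 4075 with PU, and 2325, 2320 and 2146 with DMSO. PU and KPT libraries lay above all of the others, and IB overlapped DMSO. SQSTM1 rose 1.76-fold with PU (0.81 ± 0.05, limma adjusted p = 1.12e-18) and 1.48-fold with KPT (0.56 ± 0.05, limma adjusted p = 1.16e-13). IB differed from DMSO by -0.10 (95% interval -0.19 to -0.01, limma adjusted p = 0.126).

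**Figure D2:**
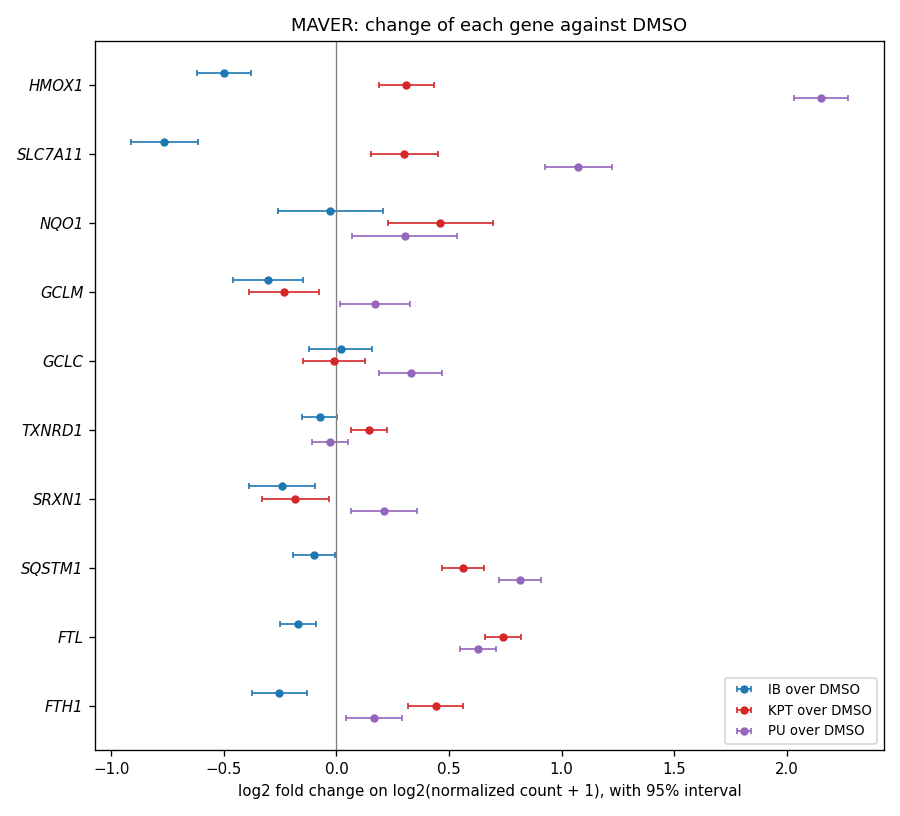
Log2 fold changes against DMSO (x axis, on log2(normalized count + 1)) of the 10 genes (y axis) in MAVER with IB, KPT and PU, with 95% intervals. HMOX1 and SLC7A11 run from -0.50 and -0.76 with IB to 2.15 and 1.07 with PU, while the TXNRD1 points lie between -0.08 and 0.14.

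Set directly against each other, 9 of the 10 genes were higher with PU than with IB (27.5% of all genes called higher and 27.6% lower), all but TXNRD1 (0.05, 95% interval -0.03 to 0.13). NQO1 was among them (0.33, limma adjusted p = 0.0145) but was lost without IB replicate B or PU replicate C (range 0.00658 to 0.114). KPT exceeded IB for 7 genes and was below it for 0 (27.0% of all genes called higher and 28.2% lower): HMOX1, SLC7A11, NQO1, TXNRD1, SQSTM1, FTL and FTH1. The difference was 1.07 for SLC7A11 (limma adjusted p = 1.26e-15) and 0.91 for FTL (limma adjusted p = 1.68e-21), and NQO1 was lost without both KPT libraries rich in RNA45S5 (0.0587). PU exceeded KPT for 6 genes and was below it for 3, TXNRD1, FTL and FTH1 (28.3% of all genes called higher and 28.6% lower).

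The NFE2L2 transcript was not called higher with any drug in MAVER. NFE2L2 and KEAP1 are described for their role and were chosen after their values were seen. NFE2L2 averaged 464 ± 42.2 normalized counts with IB, 451 ± 33.1 with KPT, 424 ± 26.4 with PU and 509 ± 12.03 with DMSO (SD, n = 3). It fell with PU (-0.27, limma adjusted p = 0.00224), where 8 of the 10 targets rose. Its fall with KPT (-0.18, limma adjusted p = 0.0397) was lost with DESeq2, without a filter, at equal upper quartiles, without the trend, without any 1 DMSO library, without KPT replicate B or C, and without both KPT libraries rich in RNA45S5. KEAP1 averaged 1361 ± 59.7 with IB, 1271 ± 57.6 with KPT, 1256 ± 34.6 with PU and 1364 ± 49.8 with DMSO. The fall of KEAP1 with PU (-0.12, limma adjusted p = 0.0438) was lost without a filter, at equal upper quartiles, without the trend, and without DMSO replicate A, DMSO replicate B, PU replicate A or PU replicate B (as high as 0.154). RNA levels do not show the NRF2 protein, which is regulated mainly by degradation.

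Of the 11 genes of the regulator list, 10 were tested. With PU, 4 rose and 3 fell, with KPT also 4 and 3, and with IB 1 rose and 0 fell (2 rose without IB replicate C). The shares of all genes called were 27.6% higher and 27.5% lower with PU, 27.3% and 28.5% with KPT, and 10.1% and 9.65% with IB. The list's median log2 fold change was 0.001 with PU, -0.08 with KPT and 0.02 with IB. Each count of 0 in this list and those that follow was also 0 with edgeR and DESeq2. At an unadjusted p under 0.05 in limma such counts were 0 as well, except for 2 thioredoxin and peroxide genes lower with IB, 1 autophagy receptor lower with IB and 1 iron and heme gene lower in JEKO1. BACH1 averaged 990 ± 72.1 with KPT, 844 ± 46.3 with PU and 566 ± 28.2 with DMSO, a rise of 0.80 with KPT (limma adjusted p = 2.42e-14) and 0.57 with PU (limma adjusted p = 1.95e-10). MAFG, a small MAF partner of NRF2 named after its values were seen, averaged 790 ± 53.2 with KPT, 719 ± 42.4 with PU and 496 ± 38.2 with DMSO. Both BACH1 and MAFG averaged higher with KPT and with PU than with DMSO, as HMOX1 did. Between KPT and PU the order differed. BACH1 and MAFG averaged higher with KPT, and HMOX1 with PU (2092 ± 55.4 against 583 ± 20.8 with KPT). The part of BACH1 and MAFG in the HMOX1 level was not tested. BACH2 rose with all 3 drugs: 2105 ± 39.8 with IB, 2129 ± 22.2 with KPT, 1718 ± 53.0 with PU and 1206 ± 49.9 with DMSO (log2 fold changes 0.80, 0.82 and 0.51). NFE2L3, an NRF2 relative, fell with KPT (-0.79) and PU (-1.003).

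**Figure D3:**
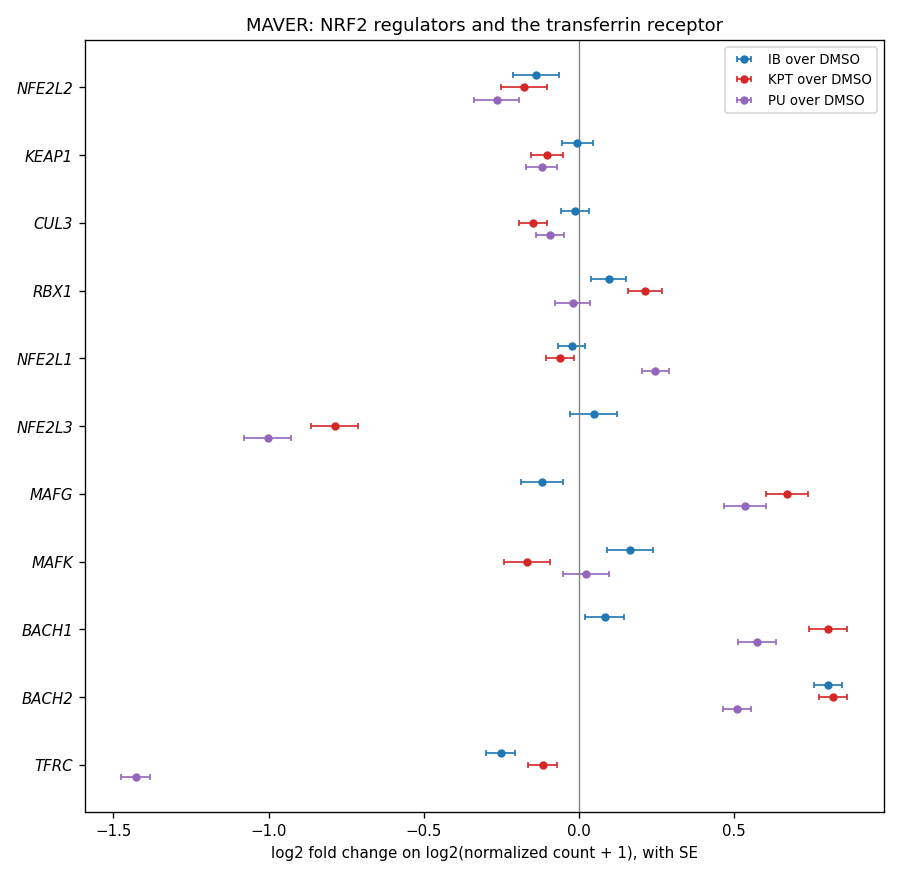
Log2 fold changes against DMSO (x axis, on log2(normalized count + 1), with SE) of 10 regulators of NRF2 and its elements and of TFRC (y axis) in MAVER with IB, KPT and PU. TFRC reaches -1.43 with PU while BACH2 lies above 0.5 with all 3 drugs.

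TFRC, the transferrin receptor that brings iron into the cell, is regulated opposite to ferritin by iron regulatory proteins, which stabilise its RNA when iron is low. TFRC stood at 3997, 3736 and 4256 normalized counts with IB, 4494, 4149 and 4515 with KPT, 1847, 1742 and 1711 with PU, and 4994, 4687 and 4588 with DMSO. The PU libraries stood far below all others. TFRC fell with PU (log2 fold change -1.43, limma adjusted p = 2.33e-26) and with IB (-0.25, limma adjusted p = 6.44e-05). The KPT difference of -0.12, named after its value was seen, was called (limma adjusted p = 0.0326) but was lost without a filter, at equal upper quartiles, without the trend, and without DMSO replicate A or KPT replicate B (as high as 0.207). TFRC was lower with PU than with KPT (1767 ± 71.6 and 4386 ± 206, log2 difference -1.31, limma adjusted p = 3.37e-25), while FTL rose with both. Of 14 iron and heme genes tested of 15 listed, 1 rose and 5 fell with PU, 2 rose and 6 fell with KPT, and 1 rose and 1 fell with IB. Without both KPT libraries rich in RNA45S5, 1 rose with KPT; with IB, 0 rose without the variance trend and 2 fell without DMSO replicate C or IB replicate C. The shares of all genes called were 27.6% higher and 27.5% lower with PU, 27.3% and 28.5% with KPT, and 10.1% and 9.65% with IB, and the median of the iron and heme list was 0 with PU, -0.13 with KPT and -0.01 with IB. HMOX2, the constitutive heme oxygenase, averaged 484 ± 24.0 with KPT, 449 ± 12.6 with PU and 711 ± 38.6 with DMSO, and fell with both (-0.55 and -0.66), opposite to HMOX1. FECH, which inserts iron into heme, rose with PU (0.46, limma adjusted p = 8.44e-08).

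Among all genes, 27.6% were called higher and 27.5% lower with PU, 27.3% and 28.5% with KPT, and 10.1% and 9.65% with IB. Of 14 glutathione genes, 4 rose and 4 fell with PU, 5 rose and 3 fell with KPT, and 1 rose and 1 fell with IB (0 rose without DMSO replicate C, IB replicate A or IB replicate C, and 2 fell without the trend). The PU and IB counts are near those shares. The median of the list was 0.001 with PU, 0.07 with KPT and 0.035 with IB. SLC3A2, the heavy chain that partners SLC7A11, averaged 4182 ± 172 with PU and 2758 ± 115 with DMSO (0.60, limma adjusted p = 7.8e-15), and the glutathione conjugate exporter ABCC1 4499 ± 218 with PU and 2572 ± 130 with DMSO (0.81, limma adjusted p = 1.4e-18). ABCC4, another exporter, fell with KPT (-1.08) and PU (-0.69). Of 12 thioredoxin and peroxide genes, 6 rose and 1 fell with PU, 8 rose and 0 fell with KPT, and 0 were called with IB; at equal totals without RNA45S5, 2 fell with PU. The median of this list was 0.17 with PU, 0.26 with KPT and -0.03 with IB. PRDX1, a peroxiredoxin, averaged 10570 ± 533 with PU and 6056 ± 284 with DMSO (0.80, limma adjusted p = 6.24e-20). SOD1, which removes superoxide, rose with PU (0.86) and KPT (0.40), and CAT, catalase, with KPT (0.49). PRDX4, the peroxiredoxin of the endoplasmic reticulum, fell with PU (-0.50).

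NADPH feeds both reductase systems, and of 6 NADPH genes tested, 2 rose and 3 fell with PU, 1 rose and 3 fell with KPT, and 0 rose and 2 fell with IB. The median of the list was -0.11 with PU, -0.24 with KPT and -0.14 with IB, and 27.6% of all genes were called higher and 27.5% lower with PU, 27.3% and 28.5% with KPT, and 10.1% and 9.65% with IB. The 3 that fell with PU became 1 without the trend, without DMSO replicate C or without PU replicate A. The 2 that fell with IB became 4 with edgeR, 1 without a filter or without DMSO replicate A or C, and 0 without the trend or without IB replicate C. TKT, transketolase of the pentose phosphate pathway, fell with KPT (-0.45, limma adjusted p = 1.01e-10) and PU (-0.65, limma adjusted p = 3.49e-15), while TALDO1, transaldolase of the same pathway, rose with KPT (0.20) and PU (0.38). PGD fell with KPT (-0.45) and rose with PU (0.16). Its fall with IB (-0.17, limma adjusted p = 0.00598) was lost without the trend, without DMSO replicate A and without IB replicate C. Of 9 detoxification genes tested, 4 rose and 1 fell with PU, 7 rose and 0 fell with KPT, and 1 rose and 0 fell with IB (0 rose without IB replicate B). The detoxification median was 0.15 with PU, 0.32 with KPT and 0.03 with IB. ABHD4 averaged 149 ± 14.3 with KPT, 199 ± 9.84 with PU and 50.3 ± 6.05 with DMSO (log2 fold changes 1.55 and 1.97).

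Of 7 autophagy receptor genes other than SQSTM1, 7 rose with PU, 5 with KPT and 2 with IB, and 0 fell. Of all genes, 27.6% were called higher with PU, 27.3% with KPT and 10.1% with IB. With IB, 1 rose without DMSO replicate B or IB replicate C, and 1 fell without IB replicate C. The median log2 fold change of the list was 0.58 with PU, 0.57 with KPT and 0.18 with IB. MAP1LC3B, an LC3 protein of the autophagosome membrane, averaged 1952 ± 99.2 with KPT, 1864 ± 51.9 with PU and 933 ± 20.8 with DMSO (1.063 and 0.997). CALCOCO2 rose with PU (1.17) and KPT (0.50), NBR1 with KPT (0.88), and the LC3 relative GABARAPL1 with PU (2.16). SLC7A11 is also a known target of the stress factor ATF4. Of its list of 6, 3 rose and 2 fell with PU, 3 rose and 1 fell with KPT, and 1 rose and 1 fell with IB, where 27.5%, 28.5% and 9.65% of all genes were called lower with PU, KPT and IB. The median of this list was 0.44 with PU, 0.13 with KPT and -0.04 with IB. With IB, 2 rose with edgeR and without DMSO replicate B, IB replicate A or IB replicate C, and 0 fell without the trend, DMSO replicate A or IB replicate B; with KPT, 0 fell without both libraries rich in RNA45S5. ASNS, asparagine synthetase, averaged 2280 ± 81.6 with PU and 1032 ± 58.1 with DMSO (1.14, limma adjusted p = 1.12e-21), and SESN2 rose with PU (1.07). ATF4 rose with KPT (0.32), as did DDIT3 (0.68). With PU both averaged lower than with DMSO: ATF4 at 2090 ± 129 against 2468 ± 108, and DDIT3 at 141 ± 19.1 against 180 ± 8.47. Which factor the member genes followed was not tested.

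In JEKO1, 5 of the 10 genes rose and 0 fell in the libraries labelled IB against those labelled DMSO, where 21.9% of all 11609 genes tested were called higher and 20.2% lower. The median log2 fold change of the 10 genes was 0.36, and that of all genes was -0.01. Without regard to sign, these medians were 0.356 and 0.187. SLC7A11 stood at 126, 149 and 149 normalized counts in libraries labelled IB and 56.9, 71.5 and 68.7 in libraries labelled DMSO. The groups stood well apart, and the rise was 2.15-fold (1.096 ± 0.14 SE, limma adjusted p = 2.25e-06). SQSTM1 stood at 1105, 1092 and 1051 in libraries labelled IB and 706, 705 and 647 in those labelled DMSO, a rise of 1.58-fold (0.66 ± 0.06, limma adjusted p = 1.12e-08). The stromal marker COL1A1 stood at 12.6 to 19.1 in libraries labelled IB and 3.35 to 4.77 in those labelled DMSO, with COL1A2 at 0. Mantle cell markers summed to 31184 to 31993 in libraries labelled IB and 28002 to 29048 in those labelled DMSO. CCND1, which made up nearly all of this sum, and CD5 were higher in libraries labelled IB. SOX11 went the other way, at 1218 to 1279 in libraries labelled IB and 1455 to 1507 in those labelled DMSO. The part of these marker differences in the JEKO1 results was not tested.

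Both ferritin chains rose. FTL stood at 3608, 3353 and 3731 normalized counts in JEKO1 libraries labelled IB and 2330, 2511 and 2671 in those labelled DMSO (1.42-fold, 0.51 ± 0.05, limma adjusted p = 1.19e-07). FTH1 stood at 1464, 1394 and 1732 in libraries labelled IB and 1159, 1191 and 1245 in those labelled DMSO (1.28-fold, 0.35 ± 0.06, limma adjusted p = 0.000207). The quotient of FTL over FTH1 counts was 2.34 ± 0.164 in libraries labelled IB and 2.09 ± 0.0698 in those labelled DMSO (SD, n = 3). SRXN1 stood at 324, 308 and 242 in libraries labelled IB and 198, 218 and 201 in those labelled DMSO (1.42-fold, 0.49 ± 0.10, limma adjusted p = 0.00075).

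NQO1 stood at 71.5, 73.4 and 55.5 normalized counts in JEKO1 libraries labelled IB and 51.7, 50.3 and 51.5 in those labelled DMSO. The groups did not overlap, but the difference was not called (0.37, 95% interval 0.02 to 0.72, limma adjusted p = 0.0874); it was called without IB replicate C (0.0349) and without the trend (0.0499), with a range of 0.0349 to 0.25. TXNRD1 stood at 3652, 3818 and 3608 in libraries labelled IB and 3477, 3524 and 3344 in those labelled DMSO (0.10, 95% interval 0.01 to 0.19, limma adjusted p = 0.063, 0.0215 to 0.249 over the alternatives). GCLM differed by 0.02 (95% interval -0.20 to 0.24) and GCLC by -0.02 (-0.15 to 0.11), neither called. HMOX1 was near the limit of detection, with 13, 5 and 12 reads in libraries labelled IB and 8, 17 and 9 in those labelled DMSO. Its difference of -0.18 had a 95% interval of -1.06 to 0.69, so neither a rise nor a fall within that span can be excluded.

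**Figure D4:**
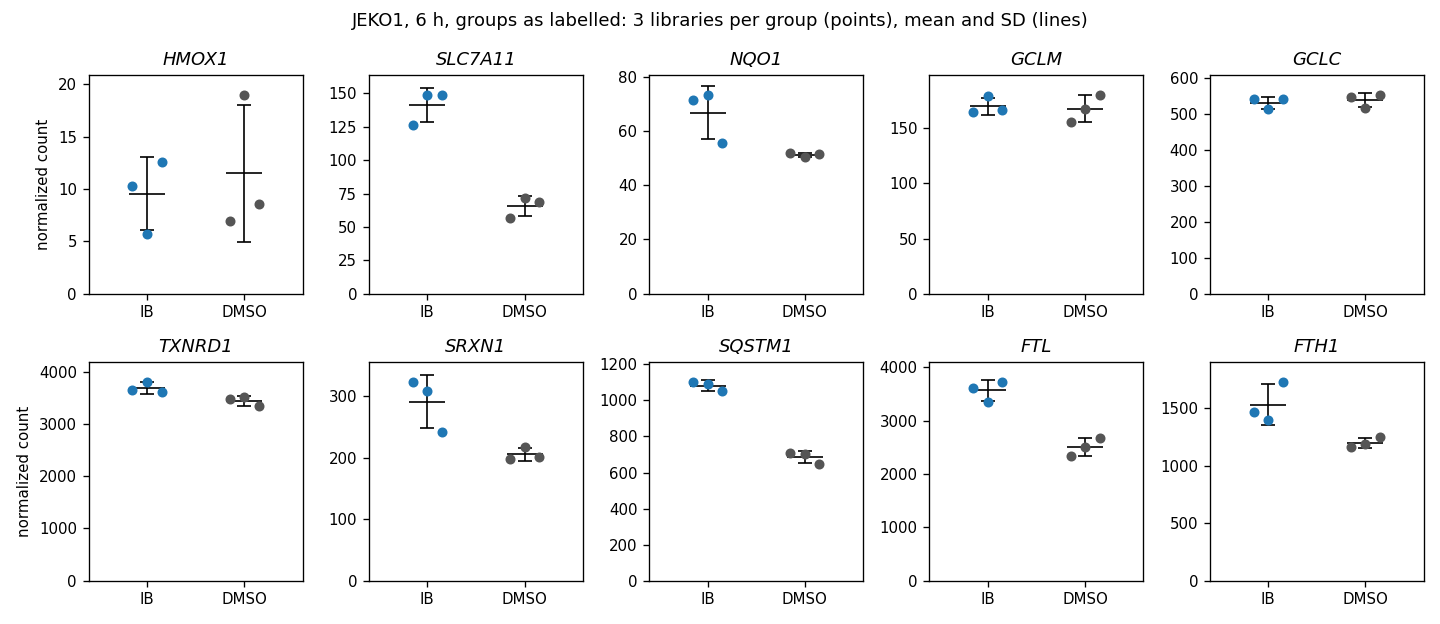
Normalized counts (y axis, from 0) of the 10 genes in the 6 JEKO1 libraries, labelled IB and DMSO on the x axis, libraries as points, the mean as the long line and the SD as the error bar. SLC7A11 libraries labelled IB sit at 126 to 149 and those labelled DMSO at 56.9 to 71.5, and HMOX1 does not exceed 19.0 in any library.

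NFE2L2 averaged 766 ± 24.3 normalized counts in libraries labelled IB and 625 ± 52.7 in those labelled DMSO, and rose (0.30, limma adjusted p = 0.00113). KEAP1 averaged 1707 ± 77.4 in libraries labelled IB and 1512 ± 120 in those labelled DMSO (0.18, limma adjusted p = 0.0163), a call lost without the trend, without DMSO replicate C, and without IB replicate A or B (as high as 0.125). BACH2 averaged 2106 ± 29.2 in libraries labelled IB and 3970 ± 75.1 in those labelled DMSO, and fell (-0.91, limma adjusted p = 5.37e-13). MAFG, a small MAF partner, rose (0.66, limma adjusted p = 2.94e-06). Of 10 regulators tested, 4 rose and 2 fell, against 21.9% of all genes called higher and 20.2% lower, and their median log2 fold change was 0.14.

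Beside the same shares of all genes called in JEKO1 (21.9% higher and 20.2% lower), of 6 NADPH genes 4 rose and 0 fell with a median log2 fold change of 0.37, led by PGD (0.42), TALDO1 (0.40) and TKT (0.34). Of 13 glutathione genes, 5 rose and 0 fell (1 fell without the trend or without DMSO replicate C), with the peroxidase GPX4 at 1583 ± 23.9 in libraries labelled IB and 1254 ± 36.9 in those labelled DMSO (0.34); the list median was 0.095. Of 12 thioredoxin and peroxide genes, 4 rose and 1 fell (median 0.06), with PRDX1 at 4320 ± 107 in libraries labelled IB and 3193 ± 176 in those labelled DMSO (0.44). Of 8 detoxification genes (median 0.09), 2 rose and 0 fell, among them NQO2 (0.87), a share near that of all genes; 1 rose without a filter, with DESeq2, and without DMSO replicate A, IB replicate A or IB replicate B. Of 13 iron and heme genes, 3 rose (a share near that of all genes) and 0 fell (1 fell without IB replicate C), with a median of 0.04, and TFRC rose (0.26, limma adjusted p = 3.96e-05) together with both ferritin chains. Autophagy receptors moved both ways, with OPTN higher (0.78) and MAP1LC3B lower (-0.31) among 1 called higher and 3 called lower of 7 (median 0.05). Of 6 ATF4 genes, 1 rose and 3 fell (median -0.165), with ASNS at -0.37.

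The IB effect of JEKO1, as labelled, was then set against that of MAVER in 1 model of 12 libraries. The difference was called for 7 of the 10 genes, all in the direction of a higher JEKO1 effect, where 21.7% of 10591 genes were called in that direction and 19.7% in the other. It was 1.86 ± 0.16 on the log2 scale for SLC7A11 (95% interval 1.54 to 2.18, limma adjusted p = 2.53e-10), 2.15-fold over DMSO in JEKO1 and 0.589 of DMSO in MAVER. For SQSTM1 it was 0.76 ± 0.07, for SRXN1 0.73 ± 0.13, for FTL 0.68 ± 0.07, for FTH1 0.60 ± 0.10 and for TXNRD1 0.17 ± 0.06 (limma adjusted p of 2.56e-09, 5.2e-05, 9.16e-09, 1.44e-05 and 0.0125 in that order). For GCLM it was 0.32 ± 0.12 (limma adjusted p = 0.0355, range 0.0101 to 0.0976), a call lost with DESeq2, with the JEKO1 labels exchanged, and without JEKO1 DMSO replicate A or B, JEKO1 IB replicate B, MAVER DMSO replicate B or C, or MAVER IB replicate A or B.

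HMOX1 (0.32, 95% interval -0.41 to 1.04), NQO1 (0.39, -0.02 to 0.80) and GCLC (-0.04, -0.22 to 0.14) were not called. HMOX1 was called without JEKO1 DMSO replicate B (0.0463) and NQO1 without JEKO1 IB replicate C (0.0385). The regulator NFE2L2 (0.43, limma adjusted p = 0.000884) and the transferrin receptor TFRC (0.52, limma adjusted p = 3.88e-07), named after their values were seen, also differed between lines. With the JEKO1 labels exchanged, 2 of the 10 genes were called, both toward a lower JEKO1 effect: SQSTM1 at -0.56 (limma adjusted p = 2.23e-06) and FTL at -0.34 (limma adjusted p = 0.00079). Of all 10591 genes, 1044 were called toward a higher and 1380 toward a lower JEKO1 effect under that exchange. SLC7A11 was then at -0.33 (limma adjusted p = 0.132), which is not called.

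**Figure D5:**
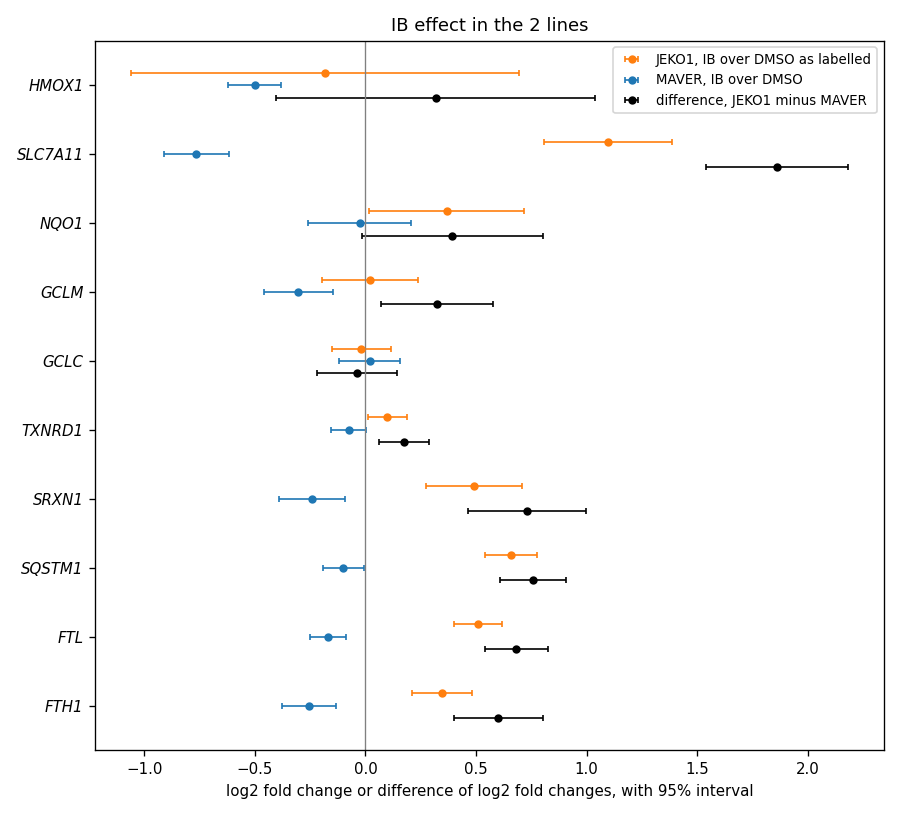
Log2 fold changes of IB against DMSO in JEKO1 as labelled and in MAVER, and the difference JEKO1 minus MAVER (x axis), of the 10 genes (y axis), with 95% intervals. The difference is 1.86 for SLC7A11 and -0.04 for GCLC, and the HMOX1 interval, from -0.41 to 1.04, is among the widest.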

How the data were processed

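Each deposited table (1 per line) holds, per its values, normalized counts made by the authors, a signal obtained by scaling a gene's reads with 1 factor for each library. Per the labels' protocols, stranded libraries were read from 1 end, aligned with STAR and quantified with Cufflinks, and DESeq2 was used for testing; the submitters' processing notes name hg19. The sources used here do not say how reads were counted, with which annotation or whether by strand. In GENCODE, exons of other genes overlap SQSTM1 (MRNIP), FTH1 (BEST1), SLC7A11 (SLC7A11-AS1), GCLC, NQO1 and SRXN1, so those values are uncertain. Values were whole multiples of 1 read within 0.01 read for 100% of values, so reads were recovered. Because each table has its own normalization, no level of 1 line is set against the other.

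In R 4.3.3, limma 3.58.1 (lmFit, eBayes with trend) was run on log2(normalized count + 1), keeping genes whose mean reached 10, with Benjamini-Hochberg adjustment over every gene tested. This scale makes the changes of weakly expressed genes look smaller. All 12 MAVER libraries entered 1 fit. Named beside the members were at most 3 called genes per list and drug comparison, by smallest adjusted p, the 3 genes most like each of 4 members (mean of at least 50), XPO1 and RNA45S5. Members and lists were chosen with earlier results of these data known. Replicate pairs differed beyond sampling noise (chi-square per degree of freedom 1.41 to 5.15). Methods were tested on simulated data. Alternatives were pseudocounts, filters, scalings, no trend, compared groups alone, the replicate block, leaving out each library, and edgeR 4.0.16 and DESeq2 1.42.0 on the recovered reads. The fits without KPT replicates A and C and with the JEKO1 labels exchanged were chosen after seeing the data.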

Additional observations from a re-analysis of the deposited data

Results flagged for a closer look

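For 7 genes the effect of IB differed between the lines when the difference itself was tested with limma, with JEKO1 as labelled. JEKO1 minus MAVER on the log2 scale, it was 1.86 for SLC7A11, 0.76 for SQSTM1, 0.73 for SRXN1, 0.68 for FTL, 0.60 for FTH1, 0.32 for GCLM and 0.17 for TXNRD1. SLC7A11, SRXN1, FTL and FTH1 rose in JEKO1 libraries labelled IB and fell in MAVER libraries with IB. In SQSTM1 only the JEKO1 rise was called, in GCLM only the MAVER fall, and in TXNRD1 neither. Opposite responses and exchanged JEKO1 labels cannot be told apart. No group had the 4 libraries that a check for single outlying libraries needs.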

How the results depend on the processing

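Of 1438 values of members under the alternatives, 1378 kept their side of the threshold and, where called, their direction, 44 lost the call, 10 gained it, and 6 that were called as reported changed direction. Another 21 values, of 9 differences that were not called as reported, changed sign and were not called under the alternative either, among them HMOX1 in JEKO1 (0.22 without DMSO replicate B) and NQO1 between lines (-0.34 with the JEKO1 labels exchanged). The 6 came from exchanging the JEKO1 labels, after which the difference between lines was -0.33 for SLC7A11, -0.023 for TXNRD1, -0.25 for SRXN1, -0.56 for SQSTM1, -0.34 for FTL and -0.092 for FTH1. The genes called then numbered 2424, against 2301 higher and 2084 lower with the labels as given, and the members called 2, against 7. Without both KPT libraries rich in RNA45S5, 1 KPT library was left. The log2 fold changes of KPT against DMSO were then 0.34 for NQO1, 0.12 for TXNRD1, -0.21 for GCLM and -0.17 for SRXN1. With all libraries they were 0.46, 0.14, -0.23 and -0.18 in that order. Leaving out 1 library gave 5 to 8 members called with PU against DMSO, the 5 without PU replicate B, where 5582 to 5710 of all genes were called. Of 1566 values of the other named genes 1509 kept their side of the threshold, 55 lost the call and 2 gained it; of 1088 list counts 40 moved by over 1.5 times.

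The replicate letters showed no consistent pairing: deviations of same-letter libraries correlated at -0.048 to 0.296 in JEKO1 and -0.238 to 0.162 in MAVER. Those of different-letter libraries correlated at -0.313 to 0.251 in JEKO1 and -0.185 to 0.241 in MAVER. With 3 libraries per group, these few pairs cannot exclude pairing. With the letter as a replicate block, 6 members were called in JEKO1, where TXNRD1 joined (limma adjusted p = 0.0215), and in MAVER 6 with IB, 9 with KPT and 8 with PU against DMSO, 7 for KPT against IB, 9 for PU against IB, 9 for PU against KPT, and 7 between lines. The genes called under the block were 5507, 2155, 6170, 6093, 6089, 6088, 6300 and 4710 in that order. HMOX1 left the JEKO1 fits at a minimum mean of 50, so its change there has no value under that filter. Depth limits HMOX1 in JEKO1, at 5 to 17 reads per library.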
